A study of Rattus norvegicus with 24 samples.

Results

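The effect of a maternal low protein diet on the fetal rat brain was examined in 6 Low Protein pups and 6 saline pups, out of 24 pups in the series. All genes of the deposited table with a mean of at least 0.1 TPM (an abundance scaled to length and library size) in both groups were included, which kept 9800 of 17420 genes. The tissue was hippocampus and neocortex from embryonic day 18 (E18), measured by RNA sequencing. The TPM of each pup sum to 70350.1, and whether the length used was that of the transcript or of the gene's genomic span is not settled, so that levels are compared between pups and not between genes. The other 12 pups, 6 from dams given the antimitotic agent methylazoxymethanol acetate (MAM, 22 mg/kg) and 6 from dams given the viral RNA mimic Poly I:C (7.5 mg/kg) on gestational day 17, were used in the shared estimate of the spread and for side by side values.

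All dams were Sprague-Dawley rats. Low Protein dams ate a diet of 6.1% protein and 75.6% carbohydrate from gestational day 11 to day 18. The control diet had equal energy (3.8 kcal/g) and equal fat (5.5%), with 20.3% protein and 61.6% carbohydrate. Saline dams were injected on gestational day 17. The sources used here leave unclear whether Low Protein dams received an injection too, and what the injected dams were fed. Each group held 3 pups from each of 2 litters, with the litter taken from the leading digit of the pup's label. The diet was given to the dam, so each litter is 1 dam, and p-values over pups measure the spread between pups rather than between dams. Fewer cells of a type and less RNA per cell could not be told apart in this bulk tissue.

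A shortage of amino acids is sensed through uncharged tRNA by the kinase GCN2 (Eif2ak4), which phosphorylates the initiation factor eIF2, slows general translation and raises translation of the transcription factor ATF4. ATF4 then raises genes for serine, asparagine and proline synthesis, amino acid transporters and the synthetases that load amino acids onto tRNA. Because ATF4 is controlled largely at translation, its own mRNA need not follow. Sterol and fatty acid synthesis are governed by other factors, the SREBPs, which are held back by the protein INSIG1 when sterols are plentiful.

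Under Low Protein 13 of 29 amino acid response genes and 9 of 21 cytosolic tRNA synthetases were higher. Of sterol and fatty acid synthesis genes, 10 of 27 and 4 of 15 were lower. Of the synaptic, GABAergic neuron and growth factor response genes, 12 of 36, 10 of 23 and 8 of 26 were lower. Of the cytosolic ribosomal protein genes, 21 of 46 (large subunit) and 15 of 33 (small subunit) were higher. More genes of the amino acid response, synthetase, sterol, fatty acid and ribosomal lists were called in litter 2 than in litter 1. At an unadjusted limma p under 0.05, the threshold used throughout for a gene called higher or lower, 747 of 9800 genes were called (7.62%). Of these, 280 were higher (2.86% of genes tested) and 467 were lower (4.77%), shares to set beside the list counts below. After scaling by the median of ratios instead, the split was 404 higher and 419 lower. No gene passed after Benjamini-Hochberg adjustment (lowest adjusted p = 0.0517, limma), and the exact permutation test put 944 genes under 0.05. The 6 Low Protein and 6 saline pups did not overlap in 69 genes (0.704%), 18 higher and 51 lower. Changes were small, as 27 of the called genes changed by 1.5-fold or more, and the median log2 fold change over all genes tested was -0.01.

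Log2 values correlated between pups at 0.976 to 0.995, and the estimated depth was 27.5 to 58.9 M reads in saline and 25.1 to 62.8 M reads in Low Protein. Markers of the labelled tissue were present, with Neurod6, of cortical projection neurons, at 90.1 ± 24.7 TPM in saline and 105 ± 16.3 in Low Protein. One saline pup (2.1) stood apart. A list score is the mean over the tested list members of the log2 difference from the saline mean. The GABAergic score of saline pup 2.1 was 0.54, against 0.10 in the next highest saline pup. Its striatum marker score was 0.83, and its cortical layer score was -0.53. Low Protein pup 1.1 stood at the other end, with a GABAergic score of -0.78 and a striatum score of -1.36. Meningeal marker scores were 0.75, -1.20 and 1.40 in Low Protein pups 1.1, 1.3 and 2.2, outside the saline range of -0.42 to 0.25, and vascular scores were -0.63 in pup 1.3 and 0.43 in pup 2.2, against -0.15 to 0.10 in saline.

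**Figure D1:**
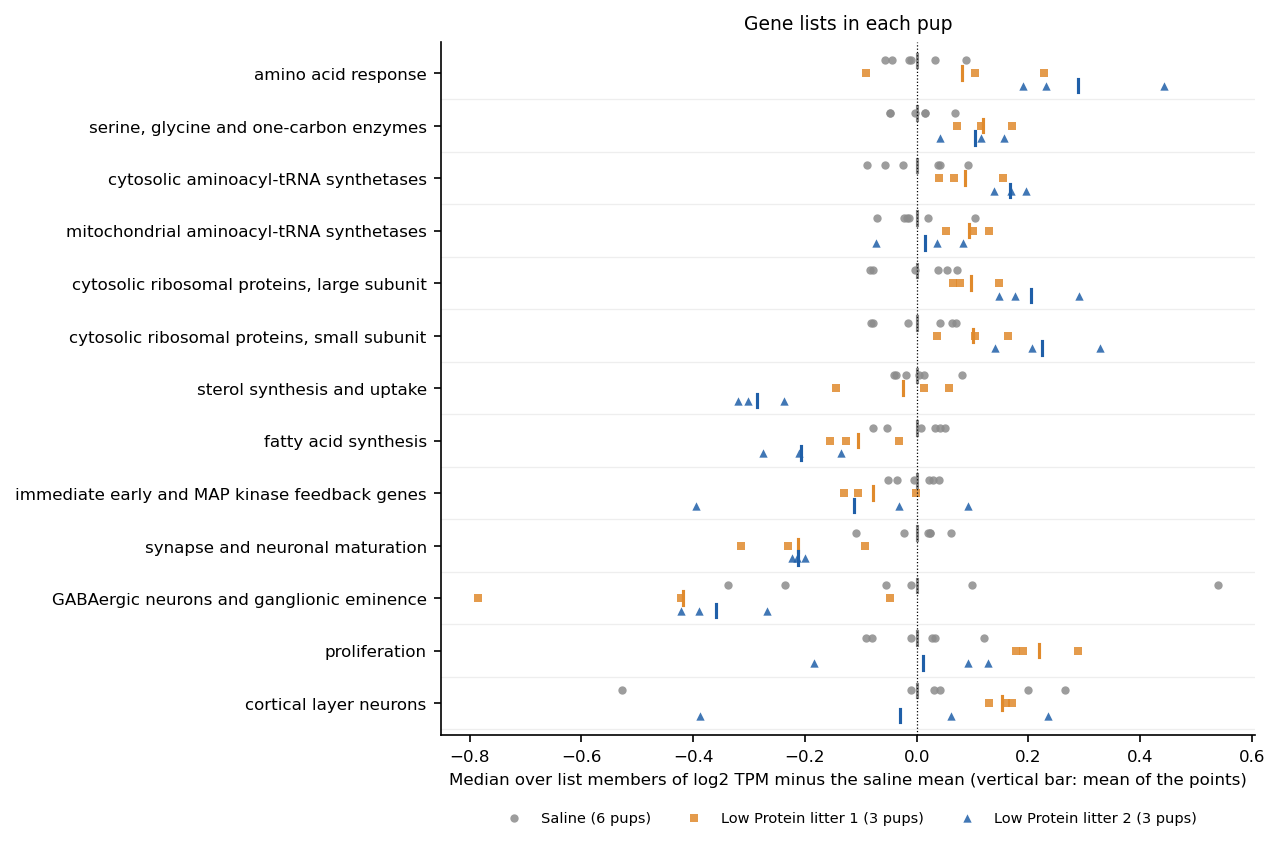
Gene list scores in each of the 12 pups, as the mean over tested list members of log2 TPM minus the saline mean (x axis, log2 units). The axis title says median, but the points are means. Grey circles are saline pups, orange squares Low Protein litter 1, blue triangles Low Protein litter 2, and vertical bars are means of the points; the 3 pups of Low Protein litter 2 stand below every saline pup for sterol synthesis, and saline pup 2.1 stands apart in the GABAergic and cortical layer lists.

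Of 36 amino acid response genes, 29 were tested, and 13 were higher and 0 lower, against backgrounds of 2.86% and 4.77%. Their median log2 fold change was 0.19, against -0.01 for all genes tested. The 13 were Psat1, Pycr1, Mthfd2, Psph, Asns, Sesn2, Atf5, Shmt2, Eif4ebp1, Slc7a1, Ddit3, Aldh18a1 and Slc7a5. Without saline litter 1 the count was 7, and without Low Protein litter 2 it was 5. Low Protein pups 1.3 and 2.2, with the lowest and highest meningeal scores, also had the lowest and highest scores for this list (-0.09 and 0.44) and for amino acid transporters (-0.22 and 0.29). Without pup 1.3 the count was 14, and without pup 2.2 it was 11. The 13 cover enzymes of serine and one-carbon metabolism, of asparagine and of proline synthesis, amino acid transporters, stress factors and a translation repressor.

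Psat1, which makes the serine precursor phosphoserine, ranged from 1.63 to 1.92 TPM in saline (median 1.78) and from 2.10 to 3.08 in Low Protein (median 2.38). The groups did not overlap, and the mean rose from 1.77 ± 0.0983 to 2.50 ± 0.422 TPM (SD, 6 pups each). Its log2 fold change was 0.48 (SE 0.11, limma adjusted p = 0.221, exact permutation p = 0.00216, the smallest that 6 against 6 pups allow). Psph, which completes serine synthesis, ranged from 0.561 to 0.741 TPM in saline and from 0.691 to 1.25 in Low Protein, a log2 fold change of 0.49 (SE 0.13). Phgdh, the first enzyme of the same route, was 1.21 ± 0.125 and 1.25 ± 0.149 TPM, and was not called (log2 fold change 0.05).

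Asns, asparagine synthetase, was 0.879, 1.07 and 1.12 TPM in the pups of Low Protein litter 1 and 1.29, 2.10 and 2.20 in litter 2, with saline pups between 0.834 and 1.09. All 3 pups of litter 2 lay above every saline pup, and litter 1 overlapped saline. The fold change was 0.51 in log2 (SE 0.16, exact permutation p = 0.0325) for the 6 pups, made up of 0.10 in litter 1 and 0.93 in litter 2. Atf5, a stress factor related to ATF4, was 5.82, 4.77 and 4.59 TPM in litter 1 and 8.37, 12.5 and 7.61 in litter 2, against 4.02 to 5.51 in saline. Pycr1, of proline synthesis, was 2.00 ± 0.164 TPM in saline and 2.65 ± 0.438 in Low Protein (log2 fold change 0.39, SE 0.09), with 0.21 in litter 1 and 0.57 in litter 2.

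Sesn2, which reports leucine shortage to the growth kinase mTOR, was 0.304 ± 0.0306 TPM in saline and 0.422 ± 0.116 in Low Protein (log2 fold change 0.43, SE 0.15), with litter values of 0.37 and 0.50. Ddit3, the stress factor CHOP, rose by 0.22 (SE 0.09, exact permutation p = 0.0844). Atf4 mRNA itself was 68.4 ± 2.14 and 70.7 ± 8.11 TPM, a log2 fold change of 0.04 (SE 0.06), and had opposite signs in the litters (0.15 and -0.07). Chac1, a glutathione-degrading ATF4 target, had a log2 fold change of 0.25 (SE 0.13) and was not called. Trib3, which damps ATF4, was under the level filter, at 0.0101 TPM in saline and 0.0165 in Low Protein.

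The sensing arm moved little at the mRNA level. Eif2ak4 was 0.345 ± 0.033 TPM in saline and 0.323 ± 0.0356 in Low Protein. Of 37 tested genes for amino acid sensing by GCN2 and mTOR, 1 was higher, Eif2b1, a subunit of the eIF2 exchange factor (log2 fold change 0.14), and the list median was 0.004.

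Enzymes of serine, glycine and one-carbon metabolism, which feed nucleotide synthesis, had 8 of 22 tested members higher and 0 lower (median 0.12). Over all genes tested 2.86% were higher and 4.77% lower. Of the 8, 4 are also in the amino acid response list. Among the other 4 were Gart and Atic of purine synthesis and Shmt1, at log2 fold changes of 0.22, 0.17 and 0.29. In this list the median was 0.16 in litter 1 and 0.06 in litter 2. With each litter set against saline by itself, 7 members were called higher in litter 1 and 4 in litter 2. Shmt1 was 0.39 in litter 1 and 0.19 in litter 2 on the log2 scale.

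Amino acid transporters split. Of 21 tested, 3 were higher and 2 were lower (median -0.03), beside 2.86% and 4.77% of all genes. The higher genes included the plasma membrane carriers of cationic amino acids Slc7a1 (log2 fold change 0.35) and Slc7a3 (0.31). The other was Slc7a5 (0.25), the LAT1 carrier of large neutral amino acids. In litters 1 and 2 the values were 0.28 and 0.41 for Slc7a1, 0.01 and 0.62 for Slc7a3, and 0.06 and 0.45 for Slc7a5. Set against saline alone, litter 1 had 0 of 21 transporters higher and litter 2 had 6. The lower genes were the proton-coupled carrier Slc36a1, which fell from 0.226 ± 0.0178 to 0.168 ± 0.0387 TPM (log2 fold change -0.46, SE 0.14), and its family member Slc36a4 (-0.24). Without saline pup 2.3 no transporter was called higher, and without either Low Protein pup 2.2 or 2.3 a single one was. Of the lower, 4 were called without saline pup 2.1 and 1 without Low Protein pup 2.1.

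Cytosolic tRNA synthetases were the list with the closest agreement in direction among the amino acid genes. Of 21 tested, 20 had a positive log2 fold change. Beside 2.86% and 4.77% of all genes, 9 synthetases were higher and 0 lower (median 0.12). They were the synthetases for cysteine (Cars), threonine (Tars), leucine (Lars), tyrosine (Yars), methionine (Mars), glycine (Gars), asparagine (Nars), isoleucine (Iars) and alanine (Aars). Without Low Protein pup 2.2, without pup 2.3 or without saline litter 2, 5 were called. The 11 tested mitochondrial synthetases, which serve the separate mitochondrial ribosome, had 0 higher and 0 lower (median 0.04), although 9 of them had a positive value.

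Cars was 1.07, 1.21 and 1.08 TPM in Low Protein litter 1 and 1.47, 1.75 and 1.73 in litter 2, with saline pups from 0.948 to 1.18. Litter 2 lay wholly above saline and above litter 1. The log2 fold change was 0.40 (SE 0.11, exact permutation p = 0.0152). Yars ranged from 2.27 to 2.62 TPM in saline and from 3.26 to 3.49 in litter 2, and litter 1, with 2.59 as its highest pup, lay within the saline range. Tars rose from 2.22 ± 0.149 to 2.52 ± 0.186 TPM (log2 fold change 0.18, SE 0.05), and Lars from 1.12 ± 0.119 to 1.29 ± 0.1 TPM (0.21, SE 0.07).

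**Figure D2:**
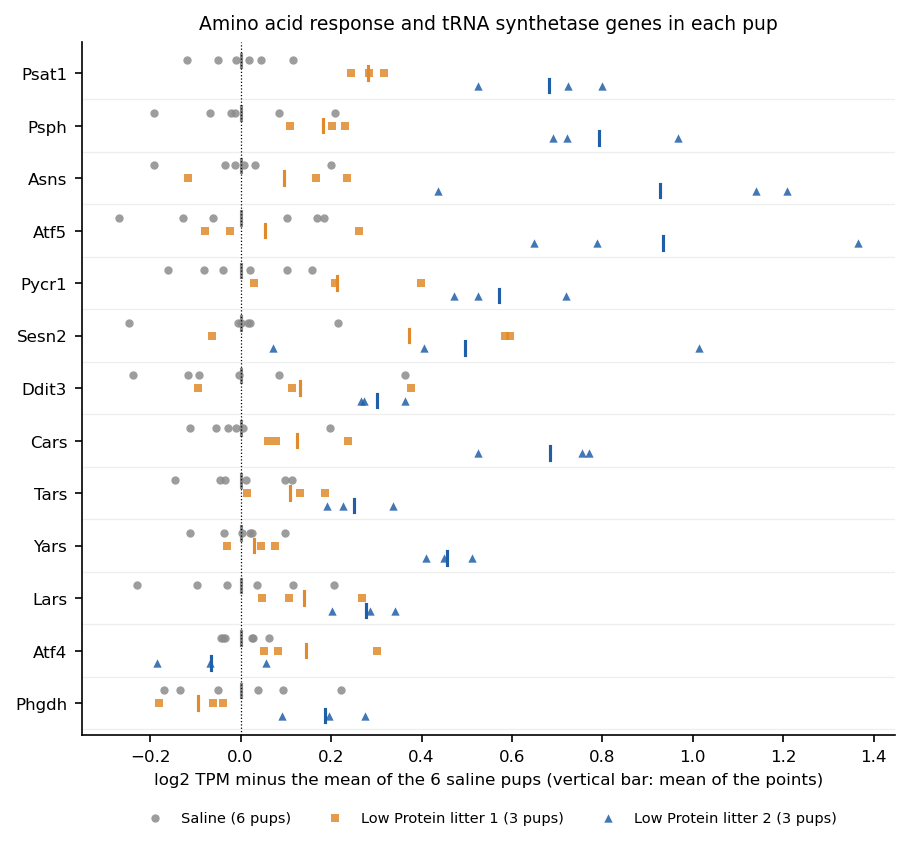
Amino acid response and tRNA synthetase genes in each of the 12 pups, as log2 TPM minus the mean of the 6 saline pups (x axis). Circles are saline, squares Low Protein litter 1, triangles litter 2, and bars are means of the points; for Asns, Atf5, Cars and Yars the triangles lie to the right of every other pup, whereas Atf4 and Phgdh stay near 0.

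Promoters of known ATF4 targets often hold the C/EBP-ATF response element. Its letters TGATGNAA were searched on both strands in RefSeq promoter windows (GRCr8, 250 bases before to 50 after each start), where it occurs in 3.98% of 33469 windows. Of the 21 synthetases tested, 18 had a window. The element was in 7 of the 8 called synthetases with a window and in none of the 10 that were not called. It was in none of the 10 mitochondrial synthetases with a window, in 4 of 26 amino acid response genes with a window, and in none of 20 sterol genes. In the amino acid response list it was in 2 of the 11 called genes with a window, Pycr1 and Slc7a1. Chac1 and Fgf21 also held it and were not called. Across the tested genes, 17 of the 159 with the element were higher (10.7%), against 210 of 7800 without it (2.69%), and the medians were 0.01 and -0.01. These genes were selected after their values were seen, and a match describes letters and is not a binding site. Stretches around it are shown for 8 of the called genes, with the element in capitals (TTGCATCA is the same element on the other strand), and each is written 5′ to 3′ along the strand of its gene.
Cars, after the start, chr1:208225334-208225363, minus strand: cggcgccgcggTTGCATCAgattctggaaa
Yars, after the start, chr5:146820190-146820212, plus strand: acgagctcagcTGATGCAAcctg
Tars, before the start, chr2:62114803-62114859, minus strand: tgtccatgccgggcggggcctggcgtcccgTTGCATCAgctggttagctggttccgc
Mars, before the start, chr7:65023754-65023800, minus strand: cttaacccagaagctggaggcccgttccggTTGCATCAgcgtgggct
Iars, before the start, chr17:15193653-15193706, minus strand: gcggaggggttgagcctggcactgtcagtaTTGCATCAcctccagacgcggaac
Aars, before the start, chr19:55908340-55908407, plus strand: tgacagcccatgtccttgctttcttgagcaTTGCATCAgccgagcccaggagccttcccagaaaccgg
Pycr1, before the start, chr10:106420906-106420973, minus strand: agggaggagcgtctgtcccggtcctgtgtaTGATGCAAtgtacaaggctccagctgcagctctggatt
Slc7a1, before the start, chr12:11664428-11664487, plus strand: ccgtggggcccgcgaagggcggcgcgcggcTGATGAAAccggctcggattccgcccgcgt

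Sterol synthesis genes moved the other way. Of 27 tested, 10 were lower and 0 higher, against backgrounds of 4.77% and 2.86%, and 25 had a negative log2 fold change (median -0.16). They run along the pathway and include the early enzyme Hmgcs1, Mvd and Fdft1, and the late enzymes Msmo1, Sc5d and Dhcr7, with Aacs, which supplies acetoacetyl-CoA, and the regulator Insig1. The count depended on single pups, with 16 called without Low Protein pup 1.2 and 5 without pup 2.2. It was 6 without Low Protein pup 2.1 and 6 without either saline pup 1.2 or 1.3. Without saline litter 1 it was 3.

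Insig1 was 4.47, 5.46 and 5.92 TPM in Low Protein litter 1 and 3.63, 3.13 and 3.47 in litter 2, against 4.77 to 5.91 in saline. Litter 1 overlapped saline and litter 2 lay below every other pup. Over 6 pups the log2 fold change was -0.33 (SE 0.12, exact permutation p = 0.0801). Hmgcs1, which makes HMG-CoA, fell from 20.0 ± 2.29 to 17.0 ± 2.49 TPM (log2 fold change -0.24, SE 0.09), with -0.07 in litter 1 and -0.40 in litter 2. Dhcr7, which makes cholesterol in the last step, fell from 4.54 ± 0.144 to 3.88 ± 0.423 TPM (-0.23, SE 0.06). Aacs did not overlap between groups, at 1.16 to 1.46 TPM in saline and 0.867 to 1.12 in Low Protein (-0.36, SE 0.08, exact permutation p = 0.00216). The master regulator Srebf2 was 2.42 ± 0.194 and 2.32 ± 0.234 TPM and was not called.

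Fatty acid synthesis had 4 of 15 tested genes lower and 0 higher (median -0.13), beside 4.77% and 2.86% of all genes. Mcat, of mitochondrial fatty acid synthesis, was 1.63 to 2.03 TPM in saline and 1.41 to 1.60 in Low Protein, without overlap, and fell alike in both litters (-0.30 and -0.27). Acss2, which makes acetyl-CoA from acetate, fell by 0.21 on the log2 scale. Slc25a1, which exports citrate from mitochondria, fell by 0.12. Scd, which desaturates fatty acids, fell by 0.46 over the 6 pups, with -0.17 in litter 1 and -0.74 in litter 2.

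**Figure D3:**
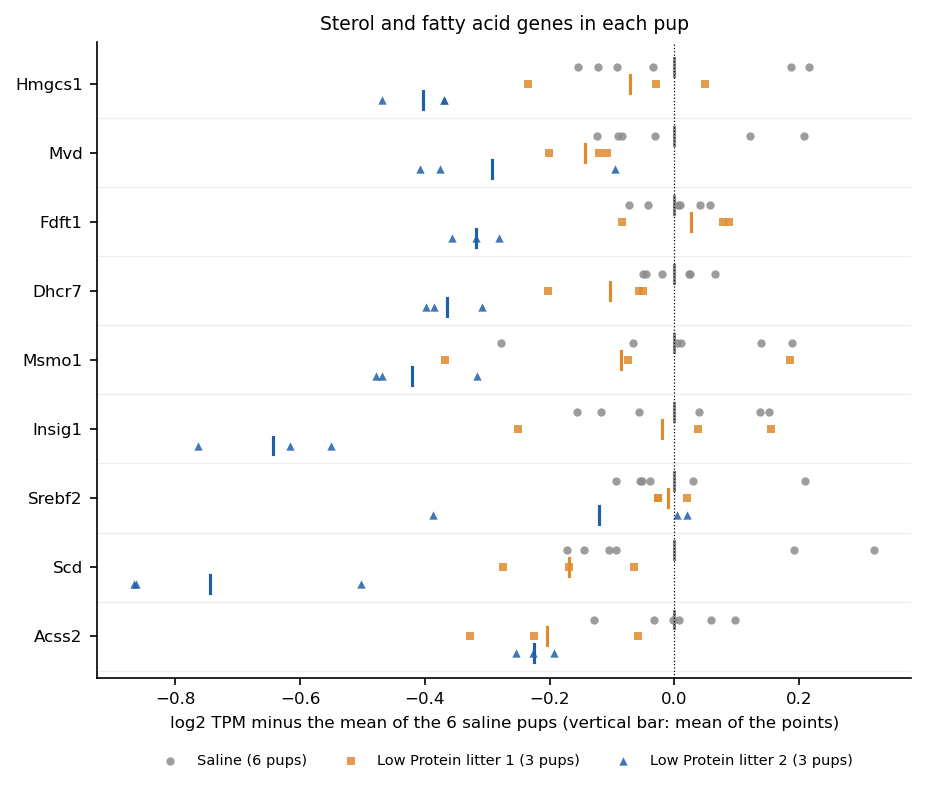
Sterol and fatty acid genes in each of the 12 pups, as log2 TPM minus the mean of the 6 saline pups (x axis). Circles are saline, squares Low Protein litter 1, triangles litter 2, and bars are means of the points; for Insig1, Fdft1 and Dhcr7 the triangles lie left of the squares, while Acss2 is low in both litters.

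The difference between the Low Protein litters was tested directly in a fit with the 8 litters as the factor. At unadjusted p under 0.05, 143 genes were higher in litter 2 than in litter 1 (1.46%) and 1005 were lower (10.3%), while the 2 saline litters differed in 234 genes. In the amino acid response list, 11 of 29 genes were higher in litter 2 and 2 were lower, and among cytosolic synthetases 7 of 21 were higher and 0 lower. Among sterol genes 12 of 27 were lower in litter 2 and 0 higher. Of the cytosolic ribosomal protein genes, 6 of 46 (large subunit) and 7 of 33 (small subunit) were higher in litter 2, with 0 lower in both. Synaptic and GABAergic genes, 36 and 23, had 0 differing in either direction. After adjustment 6 genes differed (adjusted p = 0.0471, limma), namely Cars, Yars, Atf5, Insig1, Fdft1 and the kinetochore gene Ndc80. All but Ndc80 belong to the lists above, which were chosen with earlier results of these data known. Fdft1, squalene synthase, and Ndc80 were named after their values were seen. Fdft1 was 5.33, 5.97 and 6.01 TPM in litter 1 and 4.65, 4.41 and 4.53 in litter 2, and Ndc80 was 0.578, 0.592 and 0.539 in litter 1 and 0.328, 0.352 and 0.298 in litter 2. With 1 dam per litter, the litters also differ in every other property of the dam.

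Each litter was next set against the 6 saline pups by itself. For litter 2 (3 pups), 260 of 9784 genes were higher (2.66%) and 605 lower (6.18%), and 12 passed after adjustment. For litter 1 (3 pups), 490 of 9767 were higher (5.02%) and 207 lower (2.12%), and 0 passed after adjustment. The 12 were Cars, Asns, Yars, Atf5, Insig1, Pycr1, Psph, Dhcr7, Fdft1, Psat1, Scd and Eif4ebp1, the translation repressor 4E-BP1. All 12 are in the amino acid, synthetase, sterol or fatty acid lists. These lists were chosen with earlier results of these data known, so membership is not independent support. The adjusted p of the 12 (limma) ran from 0.000683 for Cars to 0.0244 for Eif4ebp1, and over all alternatives tried from 0.000683 to 0.971. The smallest exact permutation p that 3 against 6 pups allow is 0.0119. In litter 1 the same genes had log2 fold changes from -0.17 for Scd to 0.28 for Psat1. By count, 14 of 29 amino acid response genes were higher in litter 2 and 5 in litter 1, and 9 and 2 of 21 synthetases were higher. Of the sterol genes 20 and 1 of 27 were lower, and of the fatty acid synthesis genes 6 and 2 of 15. Erythroid, microglial and meningeal marker medians were also higher in litter 2 (0.42, 0.23 and 0.33) than in litter 1 (-0.18, -0.09 and -0.27), with 1, 2 and 0 of 10, 13 and 10 markers differing between the litters, and their part in the litter difference was not tested.

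Ribosomal protein genes were higher in small steps. Of 46 tested genes of the large cytosolic subunit 21 were higher, and of 33 of the small subunit 15 were higher, with 0 lower in both. Over all genes tested 2.86% were higher and 4.77% lower. The medians of the large and small subunit were 0.15 and 0.18. Rpl3 was 93.0 to 100 TPM in saline and 102 to 108 in Low Protein without overlap, a log2 fold change of 0.12 (SE 0.04). Rps3 was 47.4 to 55.3 and 55.5 to 62.9 TPM, also without overlap (0.17, SE 0.06). Rps20 rose from 540 ± 60.4 to 634 ± 39.6 TPM (0.24, SE 0.08). In the large subunit the count was 12 without saline pup 1.3, 11 without saline pup 2.1 and 10 without Low Protein pup 2.3, and in the small subunit it was 8 without saline pup 2.1 and 7 without Low Protein pup 2.3. Without saline litter 1 the counts were 6 and 7. Without Low Protein litter 2 they were 2 and 2, and without Low Protein litter 1 they were 29 and 17. Many ribosomal protein genes have near-identical pseudogenes, so their reads may be split uncertainly.

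Genes of synapses and neuronal maturation were lower. Of 36 tested, 35 had a negative log2 fold change, 12 were lower and 0 higher (median -0.19), and 6 did not overlap between groups. Over all genes tested 4.77% were lower, 2.86% were higher and 0.704% did not overlap. Thy1, a surface protein of projection neurons, was 3.92 to 4.69 TPM in saline and 3.15 to 3.72 in Low Protein (-0.27, SE 0.09, exact permutation p = 0.00216). Grin1, the obligate NMDA receptor subunit, was 2.18 to 2.73 TPM in saline and 1.70 to 2.11 in Low Protein (-0.33, SE 0.13). Sncb, beta-synuclein, was 5.76 to 7.44 TPM and 4.23 to 5.58 (-0.36, SE 0.13). These 3 genes did not overlap. Syn1, of synaptic vesicles, fell from 2.29 ± 0.135 to 1.91 ± 0.162 TPM and fell alike in the litters (-0.23 and -0.30). The medians were -0.18 in litter 1 and -0.21 in litter 2. Leaving out any 1 litter gave 5 to 7 lower. Ranked by genomic span in 5 equal sets, all genes tested had a median of -0.05 in the longest set and 0.01 in the shortest, and after correction for gene length the synaptic median was -0.17 with 11 lower.

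GABAergic neuron and ganglionic eminence genes had 10 of 23 tested members lower and 0 higher, beside 4.77% and 2.86% of all genes. All 23 had a negative log2 fold change (median -0.35). Lhx6, needed for interneuron migration, was 2.18 to 3.08 TPM in saline and 1.55 to 2.48 in Low Protein (-0.48, SE 0.15), with -0.41 in litter 1 and -0.55 in litter 2. Gad1 and Gad2, the GABA-synthesising enzymes, had log2 fold changes of -0.47 (SE 0.20) and -0.39 (SE 0.16). Saline pup 2.1 was the highest saline pup for each of these 3 genes, and Low Protein pup 1.1 was the lowest Low Protein pup for Gad1 and Gad2. Without saline pup 2.1 4 of 23 were lower (median -0.23), and without Low Protein pup 1.1 there were 3 (median -0.29). Without saline litter 2 there were 3, and without Low Protein litter 2 there were 5. Striatum markers had 1 of 9 tested lower and a median of -0.38, with summed levels of 15.3 to 32.3 TPM in saline (median 16.7) and 8.64 to 20.3 in Low Protein (median 17.1). Without saline pup 2.1 and Low Protein pup 1.1 the striatum median was 0.08, with sums of 15.3 to 21.4 and 13.5 to 20.3 TPM. The part of these markers in the GABAergic result was not tested.

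Of 26 tested immediate early and MAP kinase feedback genes, 8 were lower and 1 higher (median -0.11), beside 4.77% and 2.86% of all genes. Dusp1, a phosphatase that switches off MAP kinases, was 11.1 to 12.4 TPM in saline and 9.38 to 11.0 in Low Protein, without overlap (-0.17, SE 0.04, exact permutation p = 0.00216). Nab2, a co-repressor of EGR factors, fell from 2.57 ± 0.16 to 2.14 ± 0.203 TPM (-0.27, SE 0.07). Egr3, an activity-induced factor, fell from 0.703 ± 0.138 to 0.473 ± 0.116 TPM (-0.59, SE 0.19), and Egr1 by 0.44. The MAP kinase inhibitors Spry2 and Spry4 fell by 0.17 and 0.30, with Ets2 and Dusp2 lower by 0.31 and 0.33. Cyr61, a matrix protein induced by YAP, rose (0.39, SE 0.13). Without Low Protein pup 2.3, whose list score was -0.39, 5 were lower and 3 higher, and without Low Protein litter 1 5 were lower.

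**Figure D4:**
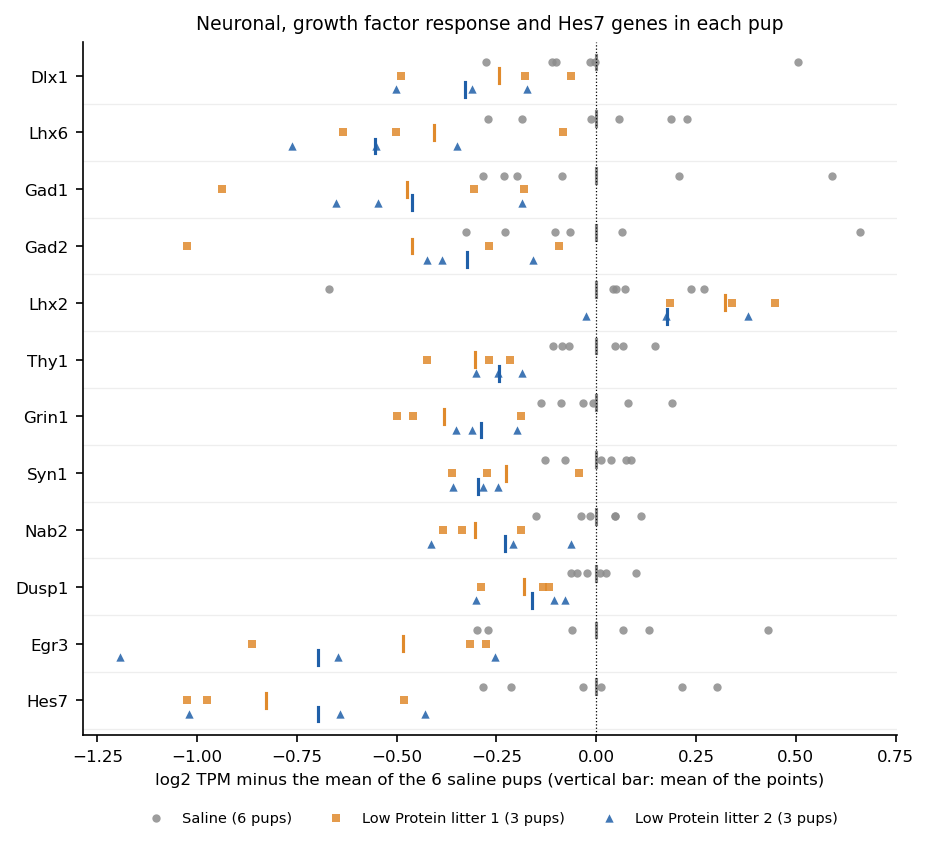
GABAergic (Dlx1 to Gad2), radial glia (Lhx2), synaptic (Thy1 to Syn1), growth factor response (Nab2 to Egr3) and Hes7 genes in each of the 12 pups, as log2 TPM minus the mean of the 6 saline pups (x axis). Circles are saline, squares Low Protein litter 1, triangles litter 2, and bars are means of the points; saline pup 2.1 is the rightmost circle for Dlx1, Lhx6, Gad1 and Gad2 and the leftmost for Lhx2, and the litters overlap in every gene shown.

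Progenitor genes showed few calls, to be set beside 2.86% of all genes called higher and 4.77% called lower. Radial glia, the neural stem cells of the cortex, had 3 of 17 tested genes higher, Hopx (0.42, SE 0.13), Emx2 (0.26) and Lhx2 (0.25). The count was 1 without Low Protein pup 2.1 or without saline pup 2.1. That saline pup had the lowest values of the 12, 1.10 TPM for Hopx and 3.57 for Lhx2. Radial glia medians were 0.09 in litter 1 and -0.02 in litter 2, with 4 and 1 genes called higher against saline. Proliferation genes had 1 of 25 higher, the replication factor Mcm3, although 23 had a positive log2 fold change (median 0.13). Without Low Protein pup 2.3 the count was 6. The medians were 0.22 in litter 1 and 0.03 in litter 2, and 8 of the 25 were lower in litter 2 than in litter 1. Intermediate progenitor genes had 0 of 6 called. Of 14 cortical layer genes, 1 was lower, Bcl11b of deep layer neurons (-0.29, SE 0.13).

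The lowest adjusted p over all genes (0.0517, limma) belonged to RGD1563482 and Hes7. RGD1563482, listed by RefSeq as Mtrfr, a factor that rescues stalled mitochondrial ribosomes, was 0.172 to 0.238 TPM in saline and 0.271 to 0.342 in Low Protein. All 6 Low Protein pups lay above all saline pups, and the log2 fold change of 0.60 (SE 0.10) was 0.62 in litter 1 and 0.58 in litter 2. Hes7, a repressor known from the somite clock, was 1.13 to 1.70 TPM in saline and 0.679 to 1.03 in Low Protein, also without overlap (-0.76, SE 0.14). Across alternatives the adjusted p ranged from 0.0157 to 0.929 for RGD1563482 and from 0.0369 to 0.929 for Hes7, and the unadjusted call held in all 31 that tested each gene.

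Aloxe3, a lipoxygenase gene, had the lowest log2 fold change among the genes without overlap, -1.10 (SE 0.26), at 0.184 to 0.295 TPM in saline and 0.0656 to 0.151 in Low Protein. In the RefSeq gene order (GRCr8) Aloxe3 is the neighbour of Hes7, 1447 bases away. On the other side of Hes7, Per1 was not called (0.08), and Vamp2, a synaptic vesicle gene, was lower (-0.17). The other genes with the highest changes and no overlap were Pop1 (0.76), of RNase P, Psat1, Naprt (0.47), of NAD synthesis, Tm2d3 and Tkfc (0.35 each), Ppil3 (0.33) and Mrpl55 (0.30), a mitochondrial ribosomal protein. Those with the lowest were Npy2r (-0.66), a neuropeptide Y receptor, Icam5 (-0.43), Rasal1 (-0.41), Bsn (-0.38), Dclk3 (-0.37) and Sncb.

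Against the other 2 models, which share no pups with Low Protein, cytosolic synthetases stood out from MAM. Low Protein was higher than MAM in 8.18% of all genes tested and lower in 1.7%, and in 15 and 0 of 21 synthetases. Tars and Lars differed from MAM by 0.34 and 0.42 on the log2 scale (adjusted p = 0.00443 for both, limma). Against saline these 2 genes were at 0.18 and 0.21 under Low Protein and at -0.16 and -0.22 under MAM. In the amino acid response list 16 of 29 genes were higher than in MAM and 1 lower. Asns was 1.44 ± 0.564 TPM in Low Protein, 0.796 in MAM and 0.955 in saline. Atf4 under Low Protein differed from MAM by 0.26 and from saline by 0.04. Against Poly I:C, where 2.41% of genes were higher and 2.56% lower, 6 of 29 amino acid response genes and 1 of 21 synthetases were higher, with 0 lower in both.

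The comparisons of each model with saline share the 6 saline pups. For the synthetases the medians against saline were 0.12 under Low Protein, -0.08 under MAM and 0.07 under Poly I:C. For sterol genes they were -0.16, -0.18 and -0.04, and the mean of Insig1 was 4.34 TPM under Low Protein, 4.29 under MAM, 4.88 under Poly I:C and 5.33 in saline. For synaptic genes they were -0.19, -0.16 and -0.20, and for GABAergic genes -0.35, -0.22 and -0.17. Set directly against Low Protein, 0 of 36 synaptic genes differed from MAM and 1 from Poly I:C, and 1 of 23 GABAergic genes differed from each. Fatty acid synthesis genes were lower in Low Protein in 3 of 15 against MAM and 4 of 15 against Poly I:C, and Mcat, at 1.54 ± 0.0668 TPM in Low Protein, had means of 1.91 TPM after MAM and 1.92 after Poly I:C. Ribosomal proteins of the large subunit were higher in 6 of 46 against MAM and 9 of 46 against Poly I:C, and of the small subunit in 2 of 33 (1 lower) and 5 of 33, beside 8.18% and 2.41% of all genes.

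**Figure D5:**
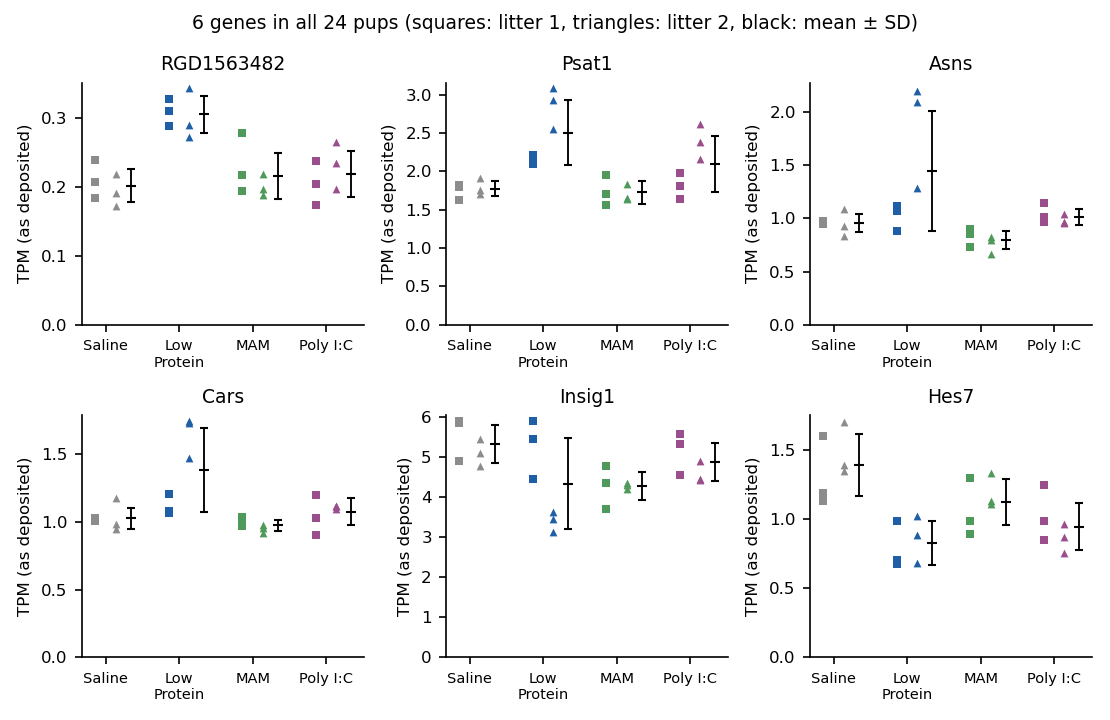
Deposited TPM values (y axis, from 0) of 6 genes in all 24 pups by group (x axis). Squares are litter 1, triangles litter 2, and black marks the mean and SD of 6 pups; RGD1563482 is high in all 6 Low Protein pups, the 3 highest pups for Asns and for Cars and the 3 lowest for Insig1 are those of Low Protein litter 2, and for Psat1 1 Poly I:C pup lies among them.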

How the data were processed

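RNA from 24 E18 pups was sequenced as stranded, paired-end mRNA libraries. Per the submitters' processing notes, reads were aligned to rn6 with STAR (2.4.1d) in Partek. The authors estimated transcript abundance against RefSeq models by Partek's E/M method and added 0.0001 to the deposited TPM. Each pup's TPM total is 70350.1, and 20.9% of values equal the added constant. Depth was estimated from the spacing of low values. Only 49.1% to 52.9% of these were within 0.05 of a whole read in the 12 pups, so reads were not recovered and no count test was run.

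Log2 TPM of 24 pups was fitted with limma (3.58.1, R 4.3.3) with 4 groups as the factor, and tested on simulated data. Single genes were compared by the exact two-sided permutation test over all splits of 6 against 6 pups. Fold changes of low genes depend on the offset. Genomic spans and promoters came from RefSeq GRCr8, with spans for 98.8% of genes tested, matched by symbol or synonym.

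The genes compared and the lists were chosen with earlier results of these data known. Named genes were the 8 highest and 8 lowest changes without overlap, up to 8 called genes per pathway list, and 13 fixed amino acid and sterol genes. Some of these genes are not reported here. The other named genes were chosen after their values were seen. Figures were drawn with matplotlib. Alternatives covered the filter, offset, scaling, gene length, variance, litter, replicate number, Eif2s3y (a sex-linked gene) and each pup and litter left out. The fit by 8 litters and the striatum values without 2 pups were chosen after seeing the data.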

Additional observations from a re-analysis of the deposited data

Results flagged for a closer look

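In 240 sets of 6 pups (120 named genes in Low Protein and in saline), 15 held a pup whose gap to its neighbour exceeded the 95% limit of Dixon's test on log2 values. Chance flags about 1 in 20 sets. Saline pup 2.1 gave 4 of them. It was high for Dlx1 (44.8 TPM against 26.1 to 31.5, ratio of gap to range 0.651), and low for the progenitor factor Lhx2 (3.57 against 5.84 to 6.84, ratio 0.756), for Hopx (1.10 against 1.75 to 2.19, ratio 0.671) and for Ppil3 (0.338 against 0.493 to 0.546, ratio 0.786).

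Among the other saline pups, pup 2.2 was high for the electron carrier Etfb (ratio 0.662), pup 2.3 low for Cyr61 (0.653) and pup 1.2 low for Tm2d3 (0.806). Among Low Protein pups, pup 2.3 was low for Srebf2 (1.85 TPM against 2.37 to 2.45, ratio 0.887) and high for Rps20 (0.794) and Ndufs3 (0.687). Low Protein pup 1.1 was low for Gad2 (0.236 against 0.357 to 0.449, ratio 0.646). Pup 1.2 was high for Pop1 (0.896 against 0.387 to 0.524, ratio 0.638) and for Syn1 (0.642). Pup 1.3 was low for Mrpl55 (0.648) and pup 2.1 low for Rasal1 (0.635).

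The litters of the Low Protein group differed after adjustment in 6 genes (litter 2 minus litter 1, log2 scale). The differences were 0.56 for Cars, 0.43 for Yars, 0.88 for Atf5, -0.62 for Insig1, -0.35 for Fdft1 and -0.81 for Ndc80, at an adjusted p of 0.0471 each (limma). Asns and Psph came next, both with an adjusted p of 0.064.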

How the results depend on the processing

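Of 3803 values of 120 named genes under 32 alternatives, 3334 kept their direction and side of the threshold, 461 lost the call and 3 gained it. The 5 that changed sign belong to 3 uncalled genes. Atf4 ranged from -0.0124 to 0.0849 over single pups left out, the lowest without Low Protein pup 1.2, and was -0.0653 without Low Protein litter 1. Phgdh was -0.00213 without saline litter 1 and -0.0936 without Low Protein litter 2, which also gave 0.0188 for Eif2ak4. With a mean above 1 required in each of the 4 groups, fewer genes were tested and 419 were called, 186 higher and 233 lower. Litter means, with fewer samples but with the dam as the unit, gave 493 of 9800, of which 166 were higher. Of the 493, 332 were also called in the main fit. The lowest adjusted p with litter means was 0.905 (limma). Without saline litter 2, 431 were called, 216 of them lower. Without Low Protein litter 2, 490 were higher and 207 lower. After adjustment 2 genes passed where no pup was at the offset, with log2(value + 0.1) or after correction for gene length, 1 after median of ratios or upper quartile scaling, 6 with 8 litters as the factor and 12 without Low Protein litter 1, and the cause was not tested.

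Leaving out single pups gave 518 to 834 called genes, with 200 to 369 higher, 318 to 599 lower and 0 to 2 after adjustment. Replicate numbers did not pair the pups (correlations of same-numbered deviations -0.10 to 0.17). With the replicate block 989 genes were called, 349 higher and 640 lower, and 0 after adjustment. The large ribosomal subunit then had 32 higher in place of 21. The synaptic list had 22 lower with only 12 pups in the fit and 23 by exact permutation. Depth and the offset limit genes near 0.1 TPM.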

Other observations

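Mitochondrial genes were higher in part, beside 2.86% of all genes tested called higher and 4.77% called lower. Of 69 tested mitochondrial ribosomal protein genes, 8 were higher and 0 lower (median log2 fold change 0.07, against -0.01 for all genes tested), led by Mrpl55, which was 3.82 to 4.75 TPM in saline and 4.99 to 5.40 in Low Protein without overlap. Of 72 oxidative phosphorylation subunits 6 were higher and 0 lower (median 0.05). The count was 3 without saline pup 1.1 or 1.3, 2 without Low Protein pup 1.2 and 1 without Low Protein pup 2.3. It was 0 without saline litter 1, 2 without Low Protein litter 2 and 1 with litter means. Fatty acid oxidation had 3 of 19 higher, Ech1 (0.16), Etfb (0.21) and Eci1 (0.20).

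Hypoxia-induced genes had 2 of 19 lower. Over all genes tested 4.77% were lower and 2.86% higher, and these shares stand beside every count in this paragraph. Car9, a carbonic anhydrase, was 0.126 to 0.241 TPM in saline and 0.0846 to 0.14 in Low Protein (-0.77, SE 0.20), at about 46 estimated reads per pup. Bnip3 fell by 0.24 and lost its call under 18 of 32 alternatives. Endoplasmic reticulum chaperones (19 tested), insulin and IGF signalling (15) and glucocorticoid response genes (8) had 0 called in either direction. Of the Notch pathway, 1 of 20 was lower, Hes7. Of the markers of other cells, the embryonic globin Hbz was higher (1 of 10 erythroid genes), Olig1 and Sox10 of oligodendrocyte precursors and Aqp4 of astrocytes were lower (2 of 9 and 1 of 7), and 0 of 13 microglial, 13 vascular, 10 meningeal, 9 choroid plexus, 7 thalamic and 5 Cajal-Retzius markers were called.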
